A study of Mus musculus with 6 samples.

Results

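The proteasome genes of the mouse cerebral cortex were examined in mice aged 12 months. The members are the protein-coding genes whose symbols begin with Psma, Psmb, Psmc, Psmd, Psme, Psmf or Psmg and a number, without the immunoproteasome genes Psmb8 and Psmb9. The rule gave 48 of the 54532 genes in the table, and it used symbols and not measured values. Of these, 47 encode subunits, activators, an inhibitor or assembly factors of the proteasome. The remaining 1, Psmc3ip, shares the prefix because its product binds a proteasome ATPase, and it is known for its part in meiotic recombination.

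The study profiled cortex RNA in 3 libraries with the genotype label Fam69c KO and 3 libraries labelled WT, all from mice of 12 months. No treatment is given, and the labels name neither the deleted part of Fam69c nor the strain, nor do they tie each library to its own mouse. The p-values therefore measure the spread between libraries, which may be technical. The Fam69c KO libraries are called labelled KO below. Fam69c encodes a kinase-like protein of the secretory pathway, and the series title ties it to stress granules and inflammasomes. Levels are FPKM, fragments per kilobase of gene model with a scaling per library. The libraries held 30935326 to 35065884 reads as recovered from the values, and the deposited scaling was not in proportion to these reads.

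The proteasome breaks down proteins tagged with ubiquitin. Its 20S core is a barrel of outer alpha rings, which gate the entry, and inner beta rings, in which Psmb5, Psmb6 and Psmb7 encode the proteolytic subunits. The 19S cap binds ubiquitin, removes it and unfolds the substrate with a ring of ATPases. Its subunits are needed in fixed proportions, and their genes are known to be induced together by the transcription factor NRF1, the product of Nfe2l1. In neurons the proteasome shapes synapses and clears damaged protein.

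The targeted gene and the makeup of the libraries were measured first. Fam69c read 1.54, 1.84 and 1.42 FPKM in labelled KO libraries and 2.03, 1.57 and 2.08 FPKM in WT libraries, so the groups overlapped. The difference of the group means, labelled KO minus WT on the log2(FPKM + 0.5) scale used for every difference below, was -0.19 log2 units (standard error 0.13, limma adjusted p = 0.999). The RNA level does not check the genotype labels, and each direction below is between libraries as labelled. All 6 cortex markers, all 6 neuron markers and all 7 striatum markers passed the filter on low values. The cortex markers summed to 111 to 116 FPKM in labelled KO libraries and 115 to 123 FPKM in WT libraries. The striatum markers summed to 141, 274 and 237 FPKM in labelled KO libraries and 289, 292 and 101 FPKM in WT libraries, above the cortex markers in every library but WT replicate 3. Replicate 1 labelled KO and WT replicate 3 thus stood apart from the other 4 libraries, and the median, the counts and the differences of named members are also given without them, after the role groups. In bulk tissue, fewer cells of a type and less RNA per cell cannot be told apart.

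**Figure D1:**
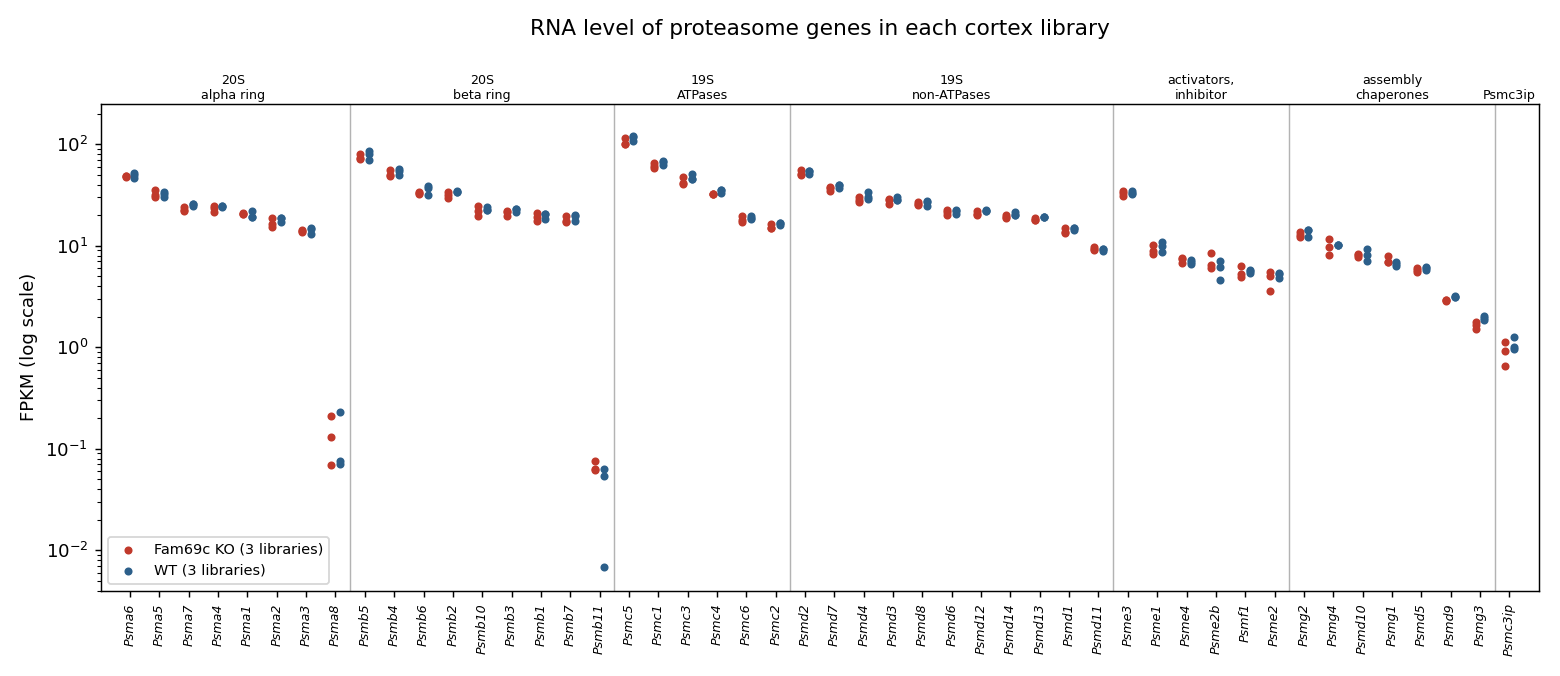
FPKM (log scale) of each of the 48 members in the 3 libraries labelled Fam69c KO (red, left) and the 3 WT libraries (blue, right), 1 point per library, ordered by role and mean level. Most subunits lie between 9.26 and 110 FPKM, while Psma8 and Psmb11 lie below 0.3 FPKM in every library.

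Transcripts of the proteasome were abundant in these cortices. Of the 48 members, 46 averaged 0.5 FPKM or more over the 6 libraries and entered the test, and their median level was 20.2 FPKM, beside 4.98 FPKM for all 15694 genes tested. The other 2 were tissue-restricted core subunits. Psma8, an alpha subunit known from testis, read 0.0697, 0.213 and 0.132 FPKM in labelled KO libraries and 0.0756, 0.231 and 0.0712 FPKM in WT libraries, from 4 to 12 reads. Psmb11, the beta subunit of the thymus, read 0.0616, 0.0626 and 0.0758 FPKM in labelled KO and 0.0534, 0.0068 and 0.0629 FPKM in WT libraries, from 1 to 13 reads. At 12 and 13 reads or fewer a library, neither gene entered the main test, and no difference between groups is read from them. With the filter on low values removed, 0 of 48 members passed an adjusted p of 0.05 in limma.

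The highest member was Psmc5, an ATPase of the 19S cap, at a mean of 110 FPKM over the 6 libraries. It was followed by Psmb5, the chymotrypsin-like subunit, at 76.3 FPKM, and the ATPase Psmc1 at 63.4 FPKM. Among the 14 constitutive core subunits, those made in all cells, the level ran from 14.1 FPKM for Psma3 to 76.3 FPKM for Psmb5, a 5.41-fold range with a median of 23.9 FPKM. By the deposited length the 6 ATPases spanned a 6.9-fold range and the 11 non-ATPase subunits of the cap a 5.69-fold range. The range among subunits was far wider than that among libraries, though a fold range and an SD are unlike measures. The median within-group SD of the tested members was 0.07 on the log2 scale, beside 0.11 for all genes tested. These SDs were not matched for level, and the members lay higher, at a median of 20.2 FPKM against 4.98 FPKM.

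The length that FPKM divides by bears on these ranks. The deposited length covers all annotated exons of a gene, and for many members it exceeds the mature messenger. Psma7, an alpha ring subunit, has a deposited length of 3071 bases and a principal transcript of 914 bases in GENCODE M21, so its mean level was 24.0 FPKM with the first and 80.7 FPKM with the second. Psmb3, a structural beta subunit, had 21.8 FPKM with the first and 65.5 FPKM with the second, and the ATPase Psmc2 had 16.0 and 45.0 FPKM. With the principal transcript length the core subunits ranged 4.5-fold, with Psmb4 highest at 86.8 FPKM, and their coefficient of variation was 38.4% in place of 55.6%. The ATPases then ranged 4.0-fold and the non-ATPase subunits 3.46-fold, and the coefficient for the ATPases was 47.6% in place of 73.8%. How reads were counted is not given in the sources used here, so levels on the shorter length may hold reads from outside the principal transcript.

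**Figure D2:**
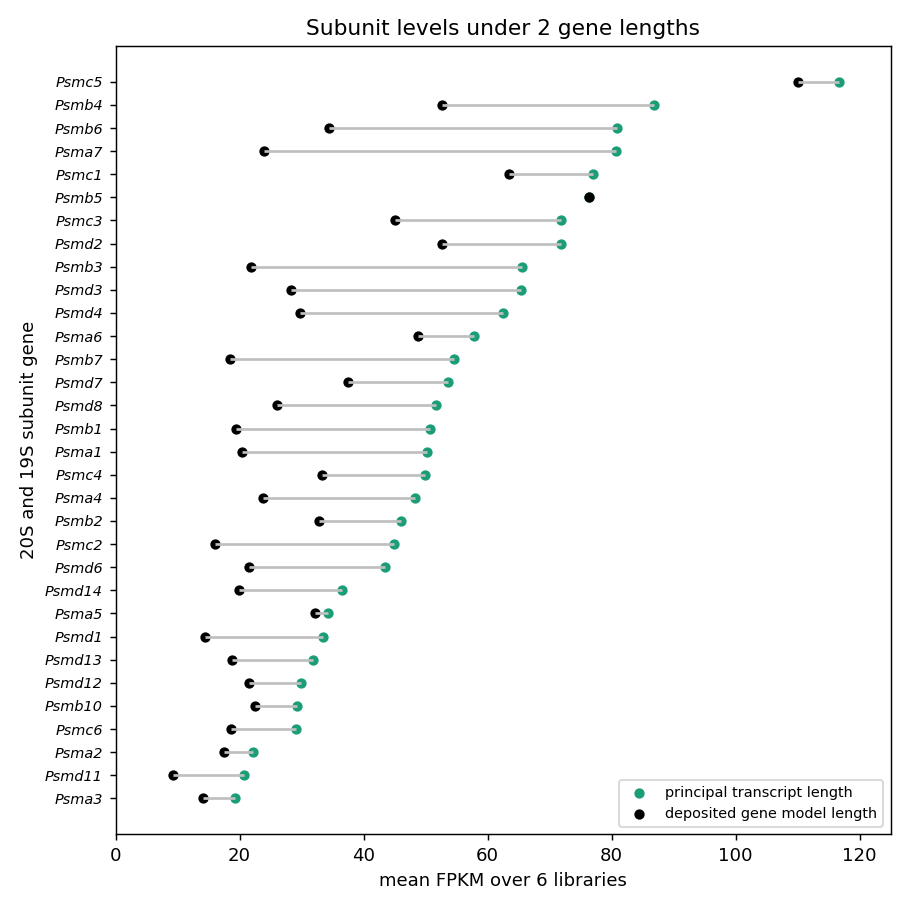
Mean FPKM over the 6 libraries (horizontal axis) of the 32 core and cap subunit genes that averaged 0.5 FPKM or more, with the deposited gene model length (black) and the GENCODE M21 principal transcript length (green). Psma7 moves from 24.0 to 80.7 FPKM, whereas Psmb5, whose lengths are equal, stays at 76.3 FPKM.

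The same choice turned the order of a constitutive subunit and its immune counterpart. Psmb10, which replaces Psmb7 in the immunoproteasome, averaged 22.5 FPKM against 18.5 FPKM for Psmb7 by the deposited length, and 29.2 against 54.6 FPKM by the principal transcript. Psmb10 lay far above the other inducible subunits by the deposited length, as Psmb8 averaged 0.799 FPKM and Psmb9 0.392 FPKM. Psmb8 read 0.960, 0.592 and 1.13 FPKM in labelled KO libraries and 0.784, 0.643 and 0.683 FPKM in WT libraries, with overlapping groups (difference 0.19 log2 units, standard error 0.17, limma adjusted p = 0.999).

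Some members share sequence with copies elsewhere, so the division of their reads is uncertain. In GENCODE M21, 12 of the 48 members had another gene with at least 200 aligned bases at 95% identity or more. One is Psma3, whose transcript is identical over 685 bases to the processed pseudogene Gm13835 (mm10 chromosome 6, 31141979 to 31142663, minus strand). Gm13835 held 845, 680 and 660 reads in labelled KO libraries and 632, 690 and 654 reads in WT libraries, which is 25.7% to 30.9% of the reads of the pair. With the reads of its copies added, Psma3 averaged 19.5 FPKM in labelled KO and 19.6 FPKM in WT libraries by the deposited length. Psma2 treated alike averaged 16.8 and 18.2 FPKM. The place of Psma3 as the lowest core subunit, and the fold range it sets, thus depend on how these reads are split. Psme2, which encodes PA28 beta, and its single-exon copy Psme2b are 99.4% identical over 794 bases, and Psme2b held 28.8% to 46.4% of the reads of that pair. By the deposited length Psme2b, with a mean of 6.49 FPKM, stood above Psme2, with 4.91 FPKM. By the principal transcript the order turned, with 6.49 FPKM for Psme2b and 9.01 FPKM for Psme2.

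The members lie on 16 chromosomes. Chromosome 11 holds 10 of the 48 members, or 20.8%, and 7.43% of all 22046 protein-coding genes in the table. Chromosomes 2 and 14 hold 6 members each, or 12.5%, and 8.36% and 4.1% of the protein-coding genes. On chromosome 14, Psmb5 and the thymus gene Psmb11 are 3410 bases apart, with means of 76.3 and 0.0538 FPKM. The PA28 genes Psme1 and Psme2 lie 5911 bases apart on the same chromosome. Of the members, 10 share exon bases with a gene on the opposite strand, among them Psmb7 with Nek6 over 405 bases and Psmd13 with Sirt3 over 342 bases. Use of strand in counting is not given in the sources used here, so reads in those stretches may not be separated.

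Promoters were searched for the letters TGACNNNGC, the core of the antioxidant response element through which NRF1 acts on proteasome genes. RefSeq promoters (GRCm38.p6) were found for 40 of the 48 members, and the 250 bases before the start were read on both strands. Of the 40, 5 held a match (12.5%), against 13.8% of 10736 genes tested and 11.5% of all 27025 genes of the promoter table, so the share is near the background. The matches are shown because they include the promoters of 2 proteolytic subunits. Psmb7, the remaining proteolytic subunit, was among the members without a promoter and was not searched. The motif stands in capitals, each run reads 5′ to 3′ along the gene's strand, and none overlaps another motif searched. In Psmb5, Psmb6 and Psmd9 the match is on the gene's own strand, and in Psmc6 and Psmd12 on the other strand, so that it reads as the reverse complement.

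Psmb5 promoter, chr14:54618022-54618054, minus strand: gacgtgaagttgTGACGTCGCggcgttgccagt
Psmb6 promoter, chr11:70525324-70525356, plus strand: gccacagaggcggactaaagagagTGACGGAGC
Psmc6 promoter, chr14:45329585-45329617, plus strand: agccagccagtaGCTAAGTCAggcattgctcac
Psmd12 promoter, chr11:107479278-107479301, plus strand: tctGCTGTGTCAcatttgcccccc
Psmd9 promoter, chr5:123228147-123228179, plus strand: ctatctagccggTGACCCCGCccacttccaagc

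The Psmb6 match ends at the last base before the start and the Psmb5 match 39 bases before it. The Psmd9 stretch lies inside the deposited gene model, which runs from 123169413 to 123250131, so its RefSeq start is not the deposited start. The CCAAT box was found in 14 of 40 members (35.0%), against 40.0% of genes tested, and TATAAA in 3 (7.5%), against 7.71%. The cyclic AMP element TGACGTCA was found in 0 of 40, against 3.09% of genes tested. The promoters of the members had a median GC content of 57.6%, beside 60.0% for genes tested.

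The question of the design is which transcripts differ between cortices labelled Fam69c KO and WT. No proteasome gene passed the test, but most stood slightly lower in labelled KO libraries. By limma with Benjamini-Hochberg adjustment over 15694 genes, 0 of 46 members passed an adjusted p of 0.05, where the share over all genes was 0%, and 1 of 46, lower in labelled KO, had an unadjusted p under 0.05, where the share was 3.82% in either direction and 2.19% lower. The difference was below 0 for 40 of 46 members, or 87.0%, where the share over all genes was 52%. The median over the members was -0.07 and over all genes -0.004. Single members ranged from -0.19 for Psmg3 to 0.23 for Psme2b, and the median 95% interval reached 0.14 to either side of a member's estimate. With each library rescaled to an equal total (TPM), the difference was below 0 for 35 of 46 members, or 76.1%, where the share over all genes was 42.5%.

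**Figure D3:**
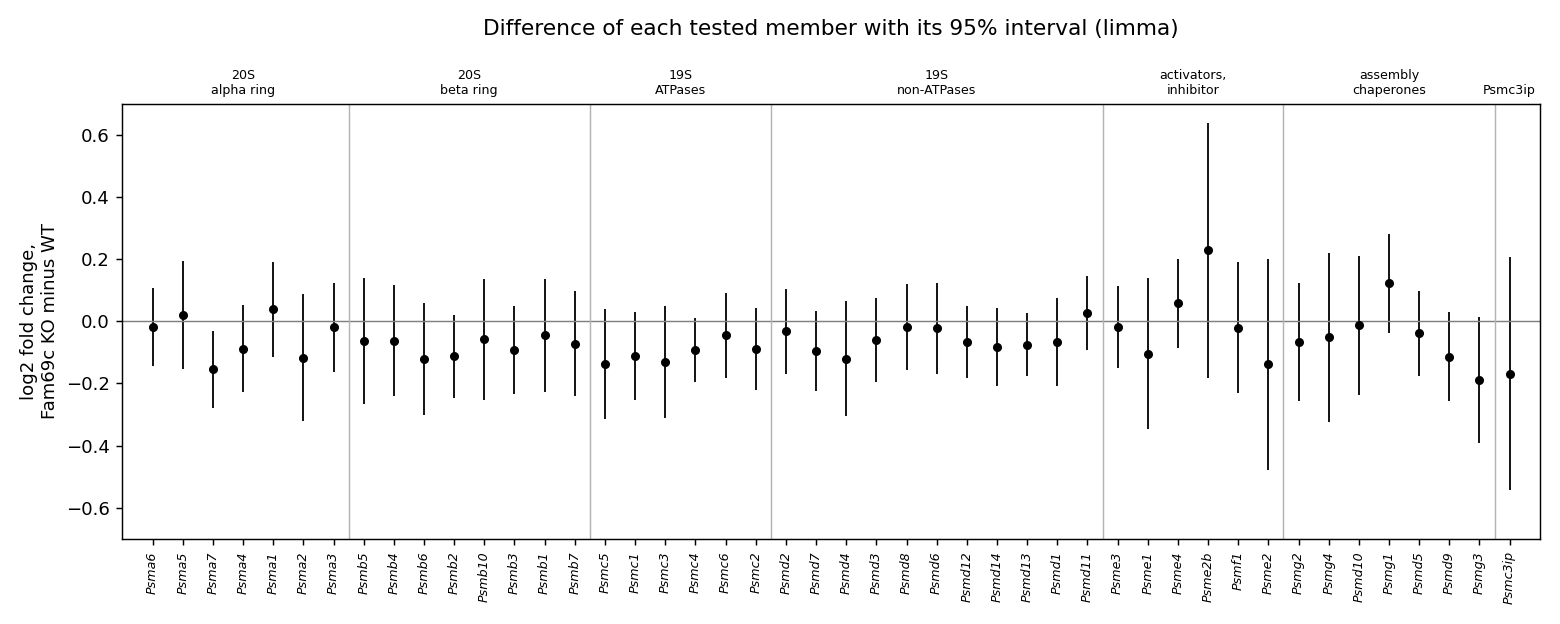
Log2 fold change (Fam69c KO minus WT, vertical axis) of the 46 tested members with 95% intervals from limma, ordered by role. Points lie below 0 for 40 of 46 members, and the interval leaves out 0 for Psma7 alone.

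The groups did not overlap and lay lower in labelled KO libraries for 5 of 46 members, where the share over all genes was 4.7%. They were the subunits Psma7, Psmc4 and Psmd13 and the assembly factors Psmd9 and Psmg3. In the other direction this held for 1 of 46 members, Psmg1, where the share was 4.17%.

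The alpha ring was mixed. Of 7 tested alpha genes 5 had a difference below 0 and the median was -0.02 log2 units, but with TPM scaling 3 of 7 did so and the median was 0.001. Psma7 had the smallest p of all members. It read 24.0, 22.4 and 21.8 FPKM in labelled KO libraries and 24.6, 25.8 and 25.5 FPKM in WT libraries. All 3 labelled KO lay below all 3 WT, with replicate 1 labelled KO close to WT replicate 1. The difference was -0.16 log2 units (standard error 0.05, limma adjusted p = 0.999). Psma6, the highest alpha gene by the deposited length, read 49.0, 47.8 and 48.7 FPKM in labelled KO and 49.9, 51.5 and 46.2 FPKM in WT libraries, and the WT libraries enclosed the other group. Psma1 read 21.2, 20.3 and 20.6 FPKM in labelled KO libraries and 19.3, 22.1 and 19.2 FPKM in WT libraries. Its groups overlapped as well, with a difference of 0.04 log2 units. With the reads of its copies added, Psma3 had a difference of -0.01 log2 units, beside -0.02 without them.

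All 8 tested genes of the beta ring had a difference below 0, with a median of -0.07 log2 units, and in 0 of the 8 were the groups apart. Psmb5 read 80.2, 72.4 and 71.0 FPKM in labelled KO libraries and 80.1, 84.6 and 69.6 FPKM in WT libraries. Its lowest and its highest value were both in WT. The difference was -0.06 log2 units (95% interval -0.27 to 0.14, limma adjusted p = 0.999). Psmb6, the caspase-like subunit, read 33.8, 32.7 and 32.4 FPKM in labelled KO libraries and 38.7, 37.4 and 31.9 FPKM in WT libraries. WT replicates 1 and 2 were the high ones and WT replicate 3 the lowest of the 6, and the groups differed by -0.12 log2 units (95% interval -0.30 to 0.06). Psmb7, the trypsin-like subunit, read 19.5, 17.6 and 17.0 FPKM in labelled KO and 19.99, 19.4 and 17.6 FPKM in WT libraries, with a difference of -0.07 log2 units. These 3 differences moved by over 1.5 times when single libraries were left out. That of Psmb5 was -0.14 without WT replicate 3 and -0.005 without WT replicate 2, that of Psmb6 -0.20 without WT replicate 3 and -0.07 without WT replicate 1, and that of Psmb7 -0.13 without replicate 1 labelled KO and -0.03 without replicate 3 labelled KO. Psmb2, a structural subunit, read 33.7, 31.4 and 29.7 FPKM in labelled KO libraries and 34.8, 33.6 and 34.1 FPKM in WT libraries. Only replicate 1 labelled KO reached the WT range, with a difference of -0.11 log2 units.

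For the ATPases of the cap the difference was below 0 in 6 of 6 genes, with the lowest median of the role groups of more than 1 gene, -0.10 log2 units. Psmc5 read 115, 99.4 and 100.5 FPKM in labelled KO libraries and 120.0, 118 and 108 FPKM in WT libraries. Replicates 2 and 3 labelled KO lay below every WT library, while replicate 1 lay between WT replicates 2 and 3. The difference was -0.14 log2 units (95% interval -0.31 to 0.04, limma adjusted p = 0.999). Psmc4 read 32.6, 31.9 and 32.1 FPKM in labelled KO libraries and 34.9, 35.0 and 33.1 FPKM in WT libraries. Its groups were apart, each with a narrow spread, at a difference of -0.09 log2 units (standard error 0.04). Psmc2, the lowest ATPase gene by the deposited length, read 16.4, 14.95 and 14.98 FPKM in labelled KO and 16.7, 16.8 and 15.9 FPKM in WT libraries. Replicate 1 labelled KO again lay within the WT range.

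Non-ATPase subunits of the cap had a difference below 0 in 10 of 11 cases, with a median of -0.07 log2 units, and in 9 of 11 with TPM scaling. Psmd2, a large scaffold subunit and the highest of them, read 55.5, 50.7 and 50.0 FPKM in labelled KO libraries and 54.7, 54.2 and 50.9 FPKM in WT libraries. The groups overlapped through replicate 1 labelled KO, which was the highest of the 6, with a difference of -0.03 log2 units. Psmd13, in which the groups were apart, read 18.8, 17.9 and 18.0 FPKM in labelled KO and 19.2, 19.2 and 19.2 FPKM in WT libraries, a difference of -0.08 log2 units. Psmd14, which encodes the deubiquitinase of the cap, had a difference of -0.08 log2 units, and the ubiquitin receptor gene Psmd4 one of -0.12. Psmd11, the lowest of the group in level, was the 1 member higher, at 9.69, 9.04 and 9.33 FPKM in labelled KO libraries and 9.25, 8.94 and 9.31 FPKM in WT libraries. Its groups overlapped, with a difference of 0.03 log2 units.

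Activators open the core without the 19S cap, and they went both ways, with a difference below 0 in 4 of 6 genes of activators and the inhibitor and a median of -0.02 log2 units. With TPM scaling this held for 3 of 6, with a median of 0.001. Psme3, the nuclear PA28 gamma, was by far the highest at 34.6, 33.2 and 30.9 FPKM in labelled KO libraries and 33.0, 34.5 and 32.3 FPKM in WT libraries. Its groups overlapped at both ends, with a difference of -0.02 log2 units. Psme4, which encodes PA200, read 7.39, 7.49 and 6.81 FPKM in labelled KO and 6.90, 7.20 and 6.67 FPKM in WT libraries, a difference of 0.06 log2 units. Replicate 3 labelled KO lay within the WT range. Psme1, the partner of Psme2 in the interferon-induced activator, had a difference of -0.10 log2 units, and Psmf1, the inhibitor PI31, one of -0.02.

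Psme2 and Psme2b had estimates of opposite sign. Psme2 read 5.05, 3.57 and 5.44 FPKM in labelled KO libraries and 5.21, 5.43 and 4.79 FPKM in WT libraries, a difference of -0.14 log2 units. Psme2b read 8.56, 6.52 and 6.004 FPKM in labelled KO and 7.04, 4.63 and 6.16 FPKM in WT libraries, a difference of 0.23 log2 units (95% interval -0.18 to 0.64). Both overlapped between the groups. With the reads of the pair added, the level on the length of Psme2 was 8.02 ± 1.25 FPKM in labelled KO libraries and 7.96 ± 0.509 FPKM in WT libraries (SD, n = 3 each), a difference of 0.002 log2 units.

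Assembly factors, which guide core and cap subunits together and leave the finished particle, had a difference below 0 in 6 of 7 cases, with a median of -0.05 log2 units, and in 5 of 7 with TPM scaling or voom. Psmg3, a chaperone of the alpha ring, read 1.76, 1.51 and 1.65 FPKM in labelled KO libraries and 2.05, 1.93 and 1.86 FPKM in WT libraries, from 146 to 185 reads. The groups were apart, and the difference of -0.19 log2 units was the lowest of the members (standard error 0.08, limma adjusted p = 0.999). Psmd9, a chaperone of the cap base, read 2.84, 2.89 and 2.91 FPKM in labelled KO and 3.14, 3.18 and 3.16 FPKM in WT libraries, a difference of -0.11 log2 units. Libraries within a group barely differed for Psmd9. A noncoding gene on the other strand, Gm26745, covers 25.5% of its exon bases and was listed at 0. Psmg1, which pairs with Psmg2 in building the alpha ring, ran the other way. It read 6.89, 6.94 and 7.83 FPKM in labelled KO libraries and 6.55, 6.35 and 6.86 FPKM in WT libraries, a difference of 0.12 log2 units (95% interval -0.04 to 0.28). The lowest library labelled KO lay just above WT replicate 3. Psmg2 read 13.7, 12.3 and 12.8 FPKM in labelled KO and 14.4, 14.3 and 12.1 FPKM in WT libraries, with overlapping groups and -0.07 log2 units. Psmc3ip, which is no proteasome gene, read 0.925, 0.660 and 1.14 FPKM in labelled KO libraries and 0.951, 1.00 and 1.26 FPKM in WT libraries, a difference of -0.17 log2 units (standard error 0.16).

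Most members moved together from library to library, and this followed the labels only in part. Of 46 members, 36 had a correlation above 0.5 with the mean of the others over the 6 libraries, and the lowest was -0.72 for Psmg1. These are descriptions, since the values share libraries and depth. The same count was not made over all genes, so it is not read as a trait of the members. In replicate 1 labelled KO, 40 of 46 members lay above their own mean over the 6 libraries, against 4 and 7 of 46 in replicates 2 and 3. In WT replicates 1, 2 and 3 it was 36, 38 and 20 of 46. Over all genes tested the share was between 48.3% and 51.8% in every library. The median deviation of the members was 0.04, -0.06 and -0.07 log2 units in labelled KO libraries and 0.06, 0.06 and -0.005 in WT libraries. The lowest values were in replicates 2 and 3 labelled KO and the highest in WT replicates 1 and 2, and replicate 1 labelled KO lay near those WT replicates. The beta ring showed the widest swing among WT libraries, at 0.09, 0.07 and -0.07, and the ATPases stood at 0.05, -0.10 and -0.09 in labelled KO libraries.

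**Figure D4:**
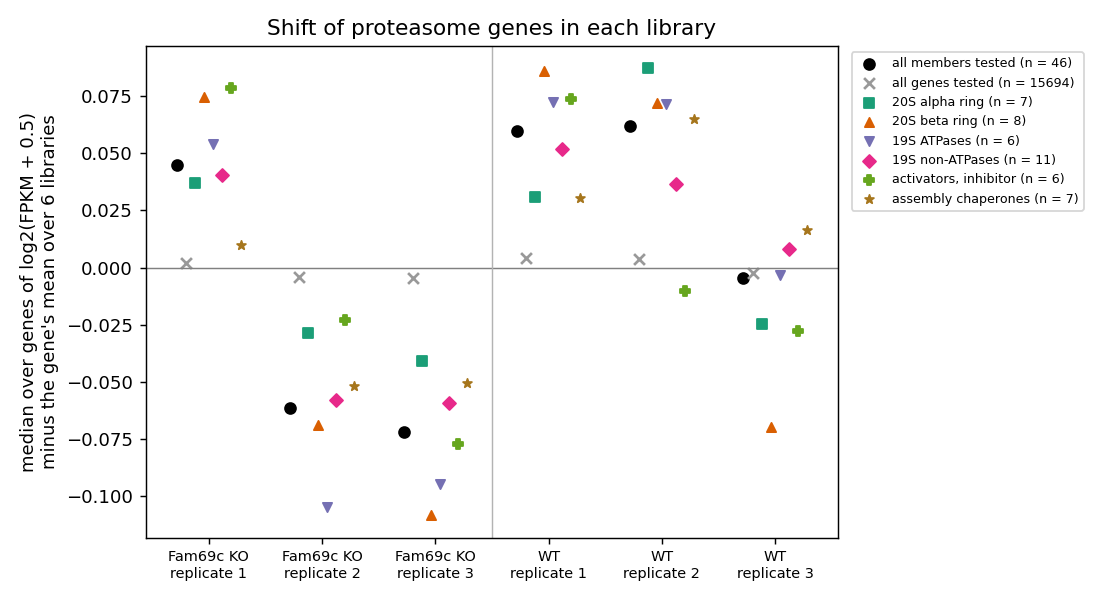
Median over genes of log2(FPKM + 0.5) minus the gene's mean over the 6 libraries (vertical axis), for all tested members, all genes tested and the role groups, in each library. The members sit at 0.04 in replicate 1 labelled KO, near WT replicates 1 and 2 at 0.06, and at -0.06 and -0.07 in replicates 2 and 3.

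The total of all FPKM per library differed along with this shift. It was 274010, 264066 and 256956 in labelled KO libraries and 273057, 274405 and 259605 in WT libraries, so that the 3 highest totals were in the 3 libraries in which the members stood highest. Its part in the result was not tested, beyond the TPM scaling given above, which makes the totals equal. Relative to the recovered reads, the deposited scaling raised those 3 libraries and lowered the rest. With voom on the recovered reads, the difference was below 0 for 5 of 7 alpha and 8 of 8 beta genes. In the cap it was so for 6 of 6 ATPase and 10 of 11 non-ATPase genes. For activators and the inhibitor the count was 4 of 6, and for assembly factors 5 of 7. Among the lists of cell type markers, the summed neuron and oligodendrocyte lists stood highest in the 3 libraries with the highest totals, and the other lists did not. The 6 neuron markers summed to 1105, 999.8 and 983 FPKM in labelled KO libraries and 1046, 1056 and 1030 FPKM in WT libraries. The 5 oligodendrocyte markers summed to 651, 509 and 533 FPKM in labelled KO libraries and 586, 647 and 497 FPKM in WT libraries. For both lists the 3 highest sums were in replicate 1 labelled KO and WT replicates 1 and 2, the libraries in which the members stood highest. The part of these markers in the result was not tested.

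The median of the members depended on the libraries kept. Without replicate 1 labelled KO it was -0.11, with 41 of 46 below 0 and 7 of 46 at an unadjusted p under 0.05, where the share over all genes was 5.74%. Without both that library and WT replicate 3 it was -0.13, with 42 of 46 below 0 and 17 of 46 at an unadjusted p under 0.05, where the share was 13.3%. In neither case did a member pass over all genes, and the smallest limma adjusted p among members was 0.828 and 0.223. For the members these were the highest labelled KO library, at 0.04, and the lowest WT library, at -0.005. Leaving them out thus lowers the median by construction, and the larger counts are no separate support for a difference. Without replicate 2 or 3 labelled KO the median was -0.04, and 0 of 46 members had an unadjusted p under 0.05 in limma in either case, with 0 past the adjusted threshold. Without both libraries that stood apart, the difference was -0.19 for Psma7, -0.20 for Psmb5, -0.22 for Psmb6, -0.18 for Psmb7 and -0.16 for Psmb2. In the cap it was -0.25 for Psmc5, -0.12 for Psmc4, -0.16 for Psmc2, -0.11 for Psmd2 and 0.01 for Psmd11. Among the other named members it was -0.26 for Psmg3, -0.19 for Psmg2, 0.18 for Psmg1, -0.24 for Psme2, 0.12 for Psme2b, -0.07 for Psme3 and 0.02 for Psme4. Psma6 had -0.07, Psma1 -0.01, where it was 0.04 with all libraries, and Psmc3ip -0.10.

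Other genes of the pathway were taken from lists chosen, like the members, with earlier results of these data known. Of 11 further proteasome genes tested, 9 had a difference below 0 and 0 passed in limma, and the median was -0.04 log2 units. Adrm1, which encodes a ubiquitin receptor of the cap, read 14.6, 15.3 and 15.5 FPKM in labelled KO libraries and 17.2, 17.0 and 16.1 FPKM in WT libraries. Its groups were apart, at -0.14 log2 units (standard error 0.05, limma adjusted p = 0.999). The core maturation factor gene Pomp had -0.09, and the cap-bound deubiquitinase genes Uchl5 and Usp14 had -0.14 and -0.04. The other way or near 0 were Akirin2, needed for nuclear import of proteasomes, at 0.04, Fbxo7, which binds the inhibitor PI31, at 0.005, and the cap-bound thioredoxin-like gene Txnl1 at -0.006.

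The transcriptional regulators did not pass either. Of 9 tested, 7 had a difference below 0 and 0 passed in limma. Nfe2l1 averaged 74.0 ± 5.14 FPKM in labelled KO libraries and 75.2 ± 4.40 FPKM in WT libraries (SD, n = 3 each), a difference of -0.02 log2 units (95% interval -0.19 to 0.14). Its level over the 6 libraries, 74.6 FPKM, was far above those of its relatives Nfe2l2, at 3.43 FPKM, and Nfe2l3, at 1.89 FPKM. Ddi2, whose protease product activates NRF1, averaged 7.97 ± 0.501 FPKM in labelled KO libraries and 7.27 ± 0.244 FPKM in WT libraries (SD, n = 3 each). The groups overlapped narrowly, with a difference of 0.12 log2 units. Vcp, the segregase that feeds the proteasome, had a difference of -0.08 log2 units.

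Among ubiquitin genes and shuttle receptors, 8 of 10 tested had a difference below 0 and 0 passed in limma. The polyubiquitin gene Ubb averaged 383 ± 26.1 FPKM in labelled KO libraries and 420.1 ± 46.0 FPKM in WT libraries (SD, n = 3 each), with overlapping groups. Rps27a, which encodes ubiquitin fused to a ribosomal protein, read 23.6, 18.5 and 18.2 FPKM in labelled KO and 36.2, 25.8 and 21.5 FPKM in WT libraries, a difference of -0.44 log2 units (95% interval -0.89 to 0.02). The shuttle receptor gene Ubqln1 had 0.002 and Ubqln2 -0.005, with intervals from -0.13 to 0.13 and from -0.14 to 0.13.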

How the data were processed

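Cortex RNA was sequenced from libraries made with an Illumina TruSeq RNA kit, per the labels' protocols. Bowtie, without a version, and the mm10 build are named in the submitters' processing notes. Counting program, strand use and annotation: not given in the sources used here. The authors deposited FPKM per gene for 6 libraries. Values above 0, multiplied by gene length, fell on multiples of a per-library unit in 100% of cases (tolerance 0.001), and the multiples were taken as reads. Intervals and read counts reflect counting and library spread only.

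From these values, genes averaging 0.5 FPKM or more were tested with limma 3.58.1 (R 4.3.3) on log2(FPKM + 0.5), with a variance trend, no block, two-sided, and Benjamini-Hochberg adjustment over 15694 genes at 0.05. The test was tried on simulated data with planted differences far larger than those of the members, so that trial does not bear on differences of the members' size. Values with ± are mean and SD. Copies were found with blastn 2.17.0, and the principal transcript is the longest of the best APPRIS class in GENCODE M21, in which 47 of 48 members have the deposited start and end. Promoters are from RefSeq. The members and lists were chosen with earlier results of these data known. Members given in full are Psmb5, Psmb6, Psmb7, the 4 with the smallest p in each direction, and the highest and lowest of each role group. Others were named after their values were seen. The listed symbols AI314180 and Paaf1 matched no gene name in the data, so nothing was tested under them.

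Of the 3 same-numbered pairs, 1 had a correlation of deviations above 0.1, where all 3 were needed, so the numbers were not used to pair libraries. Other pseudocounts, filters, scalings, weights, voom on the recovered reads, a block and left-out libraries were tried, and adding the reads of copies and the principal length were chosen after seeing the data.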

Additional observations from a re-analysis of the deposited data

How the results depend on the processing

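Over 19 alternatives, 0 members passed over all genes in any of them. With all genes counted, 0 passed in every alternative but 1: without Fam69c KO replicate 1 and WT replicate 3 together, 1 gene, Gm47283, passed and the members' median difference moved to -0.13 log2 units. The direction of that move follows from leaving out the highest labelled KO and the lowest WT library for the members. Leaving out libraries, the median ran from -0.13 to -0.043, and the number of members with a difference below 0 from 35 to 42 of 46. With a replicate block the median was -0.07, with 40 members below 0, 0 past the threshold and 3 at an unadjusted p under 0.05, and 837 of all genes in place of 599. Same-numbered libraries had correlations of deviations of 0.08, 0.01 and 0.21 over 15694 genes. With sample weights, 1420 genes and 12 members had an unadjusted p under 0.05, with a median of -0.11. Of 378 values for named members, 370 kept their sign and 8 turned, none past the threshold. With TPM scaling Psma6 was at 0.0027 and Psme3 at 0.0034, and with the reads of copies added Psme2 was at 0.0016. Leaving out libraries, Psma1 ran from -0.013 to 0.10, Psma6 from -0.070 to 0.015, Psme3 from -0.075 to 0.025 and Psme2 from -0.25 to 0.028, and Psme3 without WT replicate 2 was at 0.0075. The cause was not tested. With 3 libraries a group, differences under about 0.14 log2 units lie within the median interval of a member.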
